A study of Mus musculus with 14 samples.

Results

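Genes known for their expression in endothelial cells were followed in the hippocampal TRAP/RNA-seq libraries: Cldn5, Slco1a4, Cav1, Flt1, Egfl7, Mfng, Itm2a, Ly6c1, Pglyrp1 and Hdac7. They are 10 of the 39017 genes in the count table, and all 10 passed the filter on low counts that left 21298 genes for testing. They were chosen from these libraries because several of them had higher counts in resilient and susceptible mice than in non-defeated (ND) mice, so that their levels in defeated against ND mice are given below as a description, without a test. Tests are reserved for other comparisons, namely susceptible against resilient mice, ND TRAP libraries against ND input libraries, and the covariation of libraries within a group. The TRAP libraries of these comparisons also took part in the choice, so the tests are not free of it. A choice for high levels in both defeated groups can favor genes that differ little between them. The label "raised after defeat" held to different degrees, since Slco1a4 and Flt1 had overlapping ranges in all 3 TRAP groups and Cldn5 overlapped in 1 resilient library.

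The libraries came from male mice aged 8 to 12 weeks at the start of behavioral work that carried Cre-dependent EGFP-L10a together with PV-Cre (EGFP-L10a+; PV-Cre+), an allele pair shared by every group including the controls. EGFP-L10a is a tagged ribosomal protein, made here in cells with parvalbumin (PV) promoter activity, and translating ribosome affinity purification (TRAP) pulls down the tagged polysomes with the mRNA bound to them. In chronic social defeat stress (CSDS), a mouse is defeated repeatedly by an aggressor and is then classed as susceptible or resilient by its social interaction. There were 4 ND TRAP libraries (CTRL, samples 1, 6, 9 and 11), 4 resilient TRAP libraries (samples 3, 5, 7 and 8), 3 susceptible TRAP libraries (samples 2, 4 and 10) and 3 input libraries of total RNA from ND mice taken before TRAP (samples 12, 13 and 14). The study design describes the input as total RNA, whereas one sample label gives translating RNA for every library, input included. Each TRAP sample held the hippocampi of 1 mouse. Input libraries of defeated mice were not analysed here.

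Brain endothelial cells line the capillaries and form the blood-brain barrier. They seal the paracellular route with tight junctions, hold few caveolae, carry selective transporters on their surface, and depend on vascular endothelial growth factor (VEGF) and Notch signaling. They are not PV neurons, and an mRNA of theirs in a TRAP library of PV neurons can be read only as part of what that library held. In libraries from bulk tissue or its TRAP fraction, a change in the number of cells of a type and a change in RNA per cell cannot be told apart.

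Library totals ran from 64110214 to 94726962 counts. Levels are given as counts scaled to library size (CPM) after scaling by the trimmed mean of M-values (TMM), and differences as log2 fold changes of edgeR's quasi-likelihood fit of all 14 libraries. Pvalb lay between 1208 and 1600 CPM in the 11 TRAP libraries and between 20.02 and 31.9 CPM in the 3 input libraries, with no overlap between TRAP and input. Levels of endothelial markers spanned a wide range in both fractions. Pecam1, an adhesion molecule, averaged 0.527 ± 0.383 CPM (SD, n = 4) in ND TRAP and 0.674 ± 0.147 CPM (n = 3) in ND input libraries. Kdr, the main VEGF receptor, averaged 0.537 ± 0.343 and 1.71 ± 0.547 CPM, and Cdh5, the VE-cadherin gene, 0.179 ± 0.263 CPM, with 0 counts in 1 library, and 0.103 ± 0.0381 CPM. Higher levels were found for Slc2a1, the glucose transporter of the barrier, at 15.9 ± 4.41 CPM in ND TRAP and 13.9 ± 1.15 CPM in input, and for Esam at 2.71 ± 0.772 and 2.81 ± 0.402 CPM.

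Upstream sequence is shown for 3 of the genes, Egfl7 and Flt1 because a window held a match to an ETS core and Cldn5 as the tight junction gene whose window held none. ETS factors are a family of transcription factors that bind many endothelial promoters. RefSeq promoter windows of 300 bases (250 before to 50 after a transcription start, GRCm38.p6) were found for 9 of the 10 genes, 16 windows in all, and Mfng had no entry. The letters CGGAAGT or AGGAAGT, searched on both strands, were in 4 of those 16 windows, from 3 genes (Egfl7, Flt1 and Ly6c1), against 15.1% of all 32851 windows. A Ly6c1 match at position -126 from the start and a reverse match in another Egfl7 window at -217 are not printed. The letters AACAAT of SOX factors were in 1 window, that of Slco1a4, against 10.7% of all windows. The letters GATAAG of GATA factors were in 2 windows, of Hdac7 and Itm2a, against 7.44%. A match is a run of letters and not evidence of binding. The 250 bases before the start, 5′ to 3′ on the gene's strand, are printed with the ETS match in capitals. The stretch for Egfl7 is chr2:26583615-26583864 on the plus strand, with the match beginning at position -80 from the start. The stretch for Flt1 is chr5:147726012-147726261 on the minus strand, with the match beginning at position -53. The stretch for Cldn5 is chr16:18776597-18776846 on the plus strand.
Egfl7: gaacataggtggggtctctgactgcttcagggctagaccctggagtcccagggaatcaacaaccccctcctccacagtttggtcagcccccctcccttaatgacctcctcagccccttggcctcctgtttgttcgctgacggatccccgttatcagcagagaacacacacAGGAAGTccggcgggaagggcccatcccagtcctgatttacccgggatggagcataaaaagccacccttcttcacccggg
Flt1: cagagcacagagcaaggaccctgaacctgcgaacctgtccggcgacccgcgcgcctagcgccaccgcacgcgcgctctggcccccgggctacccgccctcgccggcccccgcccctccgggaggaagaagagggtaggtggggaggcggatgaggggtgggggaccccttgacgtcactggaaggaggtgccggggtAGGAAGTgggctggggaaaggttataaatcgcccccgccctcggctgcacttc
Cldn5: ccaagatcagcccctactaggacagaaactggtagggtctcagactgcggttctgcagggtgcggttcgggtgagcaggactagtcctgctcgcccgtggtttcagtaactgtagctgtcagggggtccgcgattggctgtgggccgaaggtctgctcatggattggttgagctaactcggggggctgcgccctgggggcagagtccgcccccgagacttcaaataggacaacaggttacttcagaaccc

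Junction and transport genes differed between themselves. Cldn5 (chromosome 16, 18776847 to 18778262, GRCm38) encodes claudin-5, the main tight junction strand protein of the blood-brain barrier. Its level was 2.13, 3.34, 3.25 and 3.07 CPM in the ND TRAP libraries (samples 1, 6, 9 and 11), 6.67, 2.83, 4.76 and 11.97 CPM in the resilient ones (samples 3, 5, 7 and 8) and 8.81, 6.15 and 7.19 CPM in the susceptible ones (samples 2, 4 and 10). All susceptible libraries lay above all ND libraries, whereas resilient library 5 lay inside the ND range and resilient library 8 was the highest of all. The mean was 2.22 times the ND mean in resilient mice (log2 fold change 1.15, SE 0.33) and 2.504 times in susceptible mice (1.32, SE 0.36). Without resilient library 8 the resilient difference was 0.69.

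Slco1a4 (chromosome 6, 141805440 to 141856199) encodes an organic anion transporter of the blood-brain barrier. Its ND TRAP libraries split between 0.878 and 1.07 CPM in samples 1 and 6 and 2.71 and 2.81 CPM in samples 9 and 11. The resilient libraries held 2.38, 2.38, 1.55 and 3.75 CPM and the susceptible ones 1.72, 1.42 and 2.69 CPM. The groups overlapped throughout, with log2 differences from ND of 0.43 (SE 0.38) in resilient and 0.06 (SE 0.41) in susceptible mice, and the susceptible difference ran from -0.25 to 0.36 over the alternative analyses.

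Cav1 (chromosome 6, 17306335 to 17341452), the gene of the caveolar coat protein caveolin-1, held 1.84, 2.39, 2.07 and 1.99 CPM in ND libraries, against 4.14, 2.73, 3.9998 and 6.58 CPM in resilient and 2.65, 2.84 and 2.97 CPM in susceptible mice. Every defeated library lay above every ND library, and the resilient mean was 2.11 times and the susceptible mean 1.36 times the ND mean. The log2 differences from ND were 1.07 (SE 0.21) and 0.44 (SE 0.23).

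Flt1 (chromosome 5, 147561604 to 147726011) encodes a VEGF receptor that also acts as a decoy for the ligand. Its level was 1.13, 1.40, 1.53 and 1.46 CPM in ND, 2.30, 0.813, 1.65 and 3.34 CPM in resilient and 2.40, 1.42 and 2.49 CPM in susceptible mice. Resilient library 5 was below every ND library and susceptible library 4 inside the ND range, so neither defeated group was separated from ND. The differences were 0.55 (SE 0.37) and 0.61 (SE 0.39).

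Egfl7 (chromosome 2, 26580014 to 26593120) encodes a secreted protein of endothelial cells that acts on vessel growth and hosts a vascular microRNA in its gene. The ND libraries held 6.55, 7.06, 5.02 and 7.02 CPM, the resilient ones 9.33, 8.12, 9.38 and 12.2 CPM and the susceptible ones 10.05, 8.86 and 9.64 CPM. All 7 defeated libraries were above all 4 ND libraries although the mean was only 1.52 and 1.48 times higher (0.60, SE 0.14, and 0.57, SE 0.15). Its exons share 264 bases with Gm20532 on the same strand and 64 bases with Agpat2 on the opposite strand, and because the library kit does not mark strand, reads from those bases cannot be assigned.

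Mfng (chromosome 15, 78755882 to 78773475), a fringe glycosyltransferase that modifies Notch receptors, was among the lowest of the 10 genes. The values were 0.572, 0.553, 0.320 and 0.688 CPM in ND, 1.31, 1.11, 0.970 and 1.06 CPM in resilient and 0.866, 0.745 and 0.848 CPM in susceptible mice. The lowest of these rested on 22 counts. The 3 groups did not overlap, with ND lowest and resilient highest, at log2 differences from ND of 1.06 (SE 0.24) and 0.62 (SE 0.26).

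Itm2a (chromosome X, 107397099 to 107403376) encodes a small membrane protein enriched in brain endothelium. It was at 3.56, 6.26, 5.29 and 6.22 CPM in ND, 9.79, 7.47, 11.2 and 14.4 CPM in resilient and 9.74, 9.41 and 10.1 CPM in susceptible mice. No defeated library reached down to the ND range, and the means were 2.01 and 1.83 times the ND mean (1.005, SE 0.20, and 0.87, SE 0.21).

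Ly6c1 (chromosome 15, 75044018 to 75048830), a lipid-anchored surface protein of brain capillaries and some leukocytes, held 3.47, 4.20, 5.48 and 5.26 CPM in ND libraries. The resilient libraries held 9.72, 6.16, 6.98 and 15.9 CPM and the susceptible ones 19.0, 10.9 and 14.9 CPM. All defeated libraries were higher than all ND libraries, at 2.10 and 3.24 times the ND mean (1.07, SE 0.28, and 1.70, SE 0.30). The near copy Ly6c2 was higher in the same direction, averaging 0.951 ± 0.220 CPM (SD, n = 4) in ND, 1.89 ± 0.766 (n = 4) in resilient and 2.96 ± 0.942 (n = 3) in susceptible libraries. Of all windows of 150 bases, the read length, in the Ly6c1 transcripts, 2.29% occur unchanged in Ly6c2, and shorter or trimmed reads could be shared more often, so the split between both genes is uncertain.

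Pglyrp1 (chromosome 7, 18871331 to 18890459), a secreted protein that binds bacterial peptidoglycan and is known from neutrophil granules as well as from brain endothelium, was at 0.655, 0.510, 0.597 and 0.323 CPM in ND. It was at 1.09, 0.932, 1.09 and 1.45 CPM in resilient and 2.09, 1.35 and 1.80 CPM in susceptible mice. Again no value of a defeated library was as low as an ND value, and the susceptible mean was 3.35 times the ND mean, the highest ratio of the 10 genes, with 2.19 times in resilient mice (1.74, SE 0.27, and 1.13, SE 0.26). The neutrophil granule gene Ngp had a count of 0 in all TRAP libraries. The list of 10 leukocyte genes summed to 0.108 to 0.449 CPM in ND, 0.371 to 1.54 CPM in resilient and 0.555 to 6.86 CPM in susceptible libraries. Of this list, 3 genes passed the filter on low counts, Lcn2, Ptprc and Mpo. Lcn2 averaged 0.0478 ± 0.0513 CPM (SD, n = 4) in ND and 1.87 ± 2.65 (n = 3) in susceptible libraries, where the whole list summed to 2.91 ± 3.44 CPM. Between defeated and ND libraries, Lcn2 differed by 4.04 (SE 1.28, edgeR adjusted p = 0.827), Ptprc by 0.93 (SE 0.80) and Mpo by 1.09 (SE 1.13). Mpo was at -1.16 (SE 1.25) in susceptible against resilient libraries. The part of leukocyte RNA in the Pglyrp1 and Ly6c1 levels was not tested.

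Hdac7 (chromosome 15, 97792664 to 97844502), a class IIa histone deacetylase of endothelial cells and thymocytes, held 2.05, 2.04, 1.85 and 1.66 CPM in ND, 2.80, 2.90, 3.21 and 4.07 CPM in resilient and 2.21, 2.63 and 3.51 CPM in susceptible libraries. Each defeated library was above each ND library (0.77, SE 0.17, and 0.55, SE 0.19). Its exons share 29 bases with Slc48a1 on the opposite strand. The class members Hdac4, Hdac5 and Hdac9 had differences of 0.05 (SE 0.08), -0.18 (SE 0.07) and -0.21 (SE 0.11) between defeated and ND libraries, and of these Hdac5 alone passed unadjusted (edgeR adjusted p = 0.947). Hdac5 was lower in susceptible than in resilient libraries (-0.45, SE 0.09, edgeR adjusted p = 0.0346), whereas Hdac7 differed by -0.22 (SE 0.19, edgeR adjusted p = 0.539) in that comparison.

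**Figure D1:**
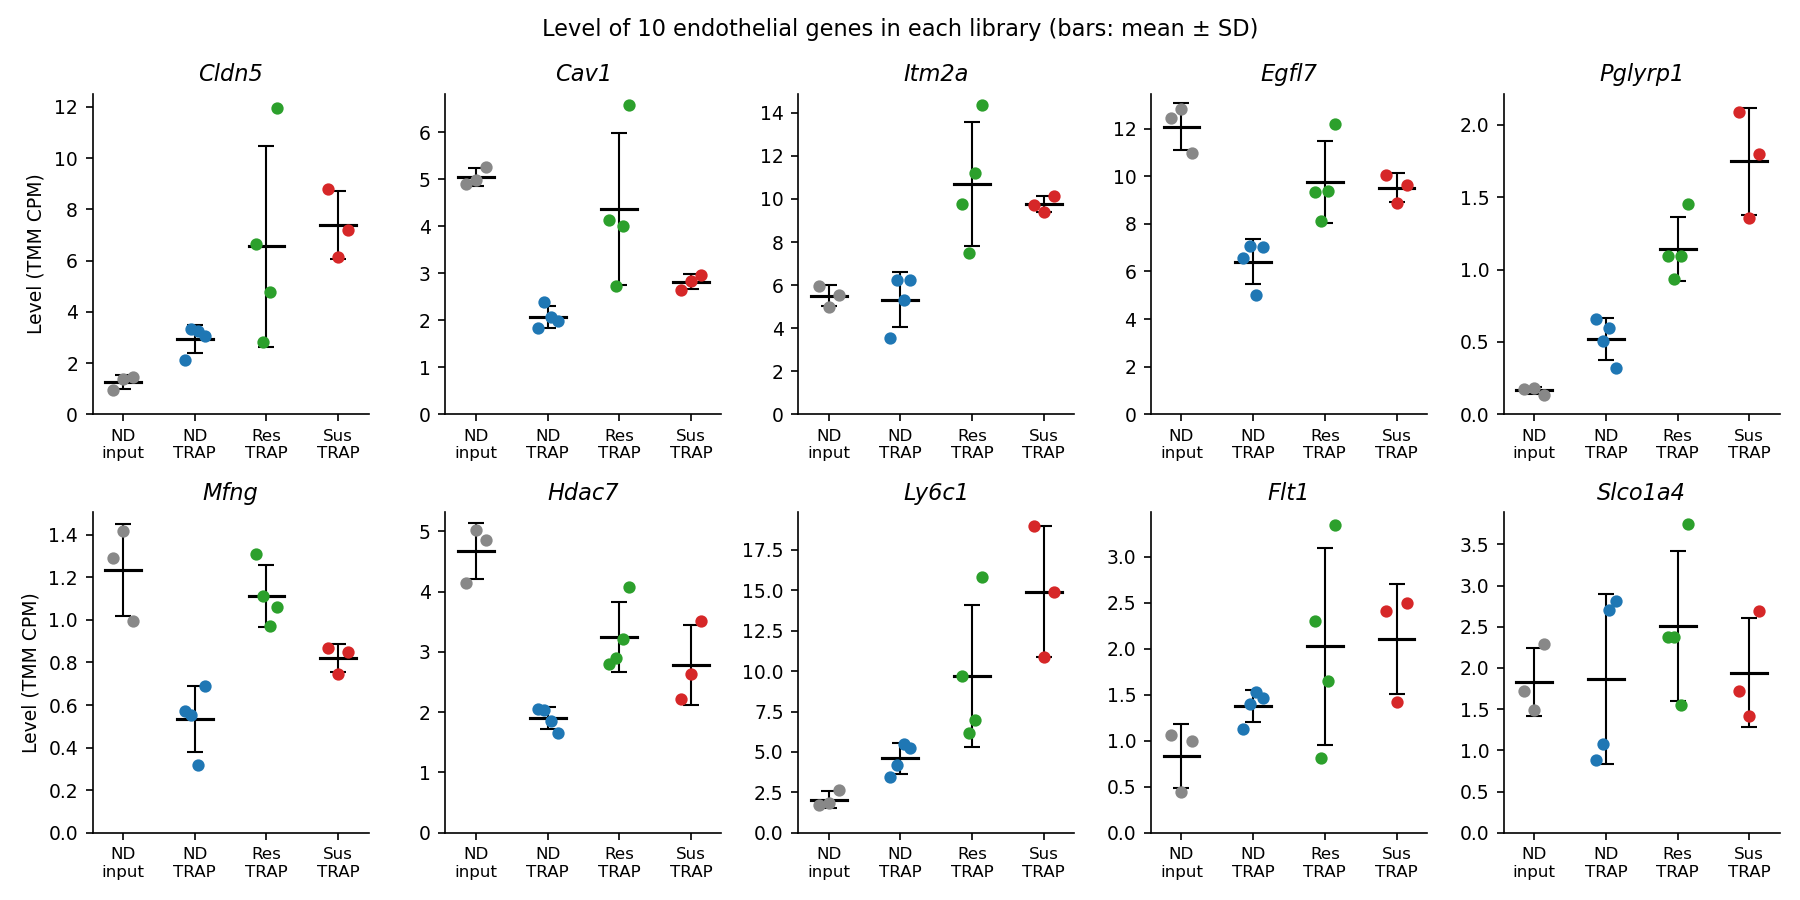
Level of each of the 10 genes (TMM CPM, linear axes from 0) in every library of the 4 groups; points are libraries and bars the mean ± SD. For 7 genes all defeated TRAP libraries sit above all ND TRAP libraries, while Cldn5, Flt1 and Slco1a4 overlap, and resilient library 8 is the highest resilient point in 9 of the 10 panels.

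Seen together, 7 of the 10 genes had all 7 defeated TRAP libraries above all 4 ND TRAP libraries. Of all 21298 genes tested, 0.258% showed that order, but the 10 genes were picked for being higher, so nothing is read from the difference in these shares. Resilient libraries alone were above ND in 7 genes (1.3% of all genes) and susceptible libraries alone in 8 (4.21%). Both comparisons use the same 4 ND libraries. Leaving out resilient library 5, an alternative chosen after seeing the data, brought Cldn5 into the count of defeated above ND, which became 8, and the count without resilient library 8 was 7. The share over all genes was not taken for these runs, so neither count is read. Resilient library 8 was the highest TRAP library for 7 of the genes and resilient library 5 the lowest resilient library for 7. Without library 8 the resilient difference from ND stayed above 0 for all 10 genes but was 0.73 for Ly6c1, 0.20 for Flt1 and 0.17 for Slco1a4. Sample numbers 1 to 6 and 7 to 11 gave resilient values above ND in 10 and 9 of the 10 genes, with medians of 0.74 and 1.05 on the log2 scale. Each of these parts holds 2 ND and 2 resilient libraries that were used in the choice, so nothing is read from their likeness.

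Per kilobase of exon in the ND TRAP libraries, Itm2a was the most abundant at 3.06 ± 0.725 CPM per kilobase (SD, n = 4), followed by Ly6c1 at 2.74 ± 0.559, Cldn5 at 2.08 ± 0.392 and Egfl7 at 1.79 ± 0.266. The mean ± SD ranges of neighbours in this order overlapped. Cav1 was at 0.602 ± 0.0667, Slco1a4, Pglyrp1 and Hdac7 lay between 0.281 and 0.291, Mfng was at 0.188 ± 0.0542 and Flt1 lowest at 0.102 ± 0.0129.

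Susceptible and resilient mice were compared to ask whether the 10 genes followed the behavioral outcome. No gene passed at an edgeR adjusted p below the 0.05 threshold, nor with DESeq2 or the likelihood ratio test, while 1.89% of all genes did in the edgeR fit, or 403 genes. That number was 1 when the TRAP libraries were fitted alone and 0 when only both groups compared were, so that calls named in this comparison, those of Hdac5, globin genes and Grin2b, hold for the fit of all 14 libraries. Unadjusted, 2 of the 10 passed, against 20.9% of all genes. Cav1 differed by -0.63 (95% interval -1.11 to -0.14, edgeR adjusted p = 0.140). Pglyrp1 differed by 0.61 (0.04 to 1.19, edgeR adjusted p = 0.208) and Ly6c1 by 0.62 (-0.01 to 1.26, edgeR adjusted p = 0.243). No gene had all susceptible libraries above all resilient ones, an order found in 7.71% of all genes, but without resilient library 8 that count was 2 (Pglyrp1 and Ly6c1). Mfng was the single gene with all susceptible libraries below all resilient ones, an order that 7.44% of all genes showed. Its difference was -0.44 (-0.99 to 0.11, edgeR adjusted p = 0.353), and without resilient library 5 the count was 2 (Cav1 and Mfng). With a library left out such an order is easier to reach. The share over all genes was not taken again, so these counts of 2 are not read. For Egfl7 the interval was -0.36 to 0.29 around -0.03, the narrowest of the 10, and for Slco1a4 it was -1.24 to 0.50, the widest. With all libraries, a 2-fold difference in either direction lay outside the intervals of Egfl7, Itm2a (-0.58 to 0.32), Hdac7 (-0.62 to 0.18), Mfng, Cldn5 (-0.58 to 0.93) and Flt1 (-0.78 to 0.90), but not outside those of Cav1, Pglyrp1, Ly6c1 and Slco1a4. These values depended on resilient library 8: without it the difference was -0.36 for Cav1, 0.97 for Ly6c1, 0.64 for Cldn5, 0.41 for Flt1 and -0.11 for Slco1a4, while Mfng was at -0.46 and Pglyrp1 at 0.75.

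**Figure D2:**
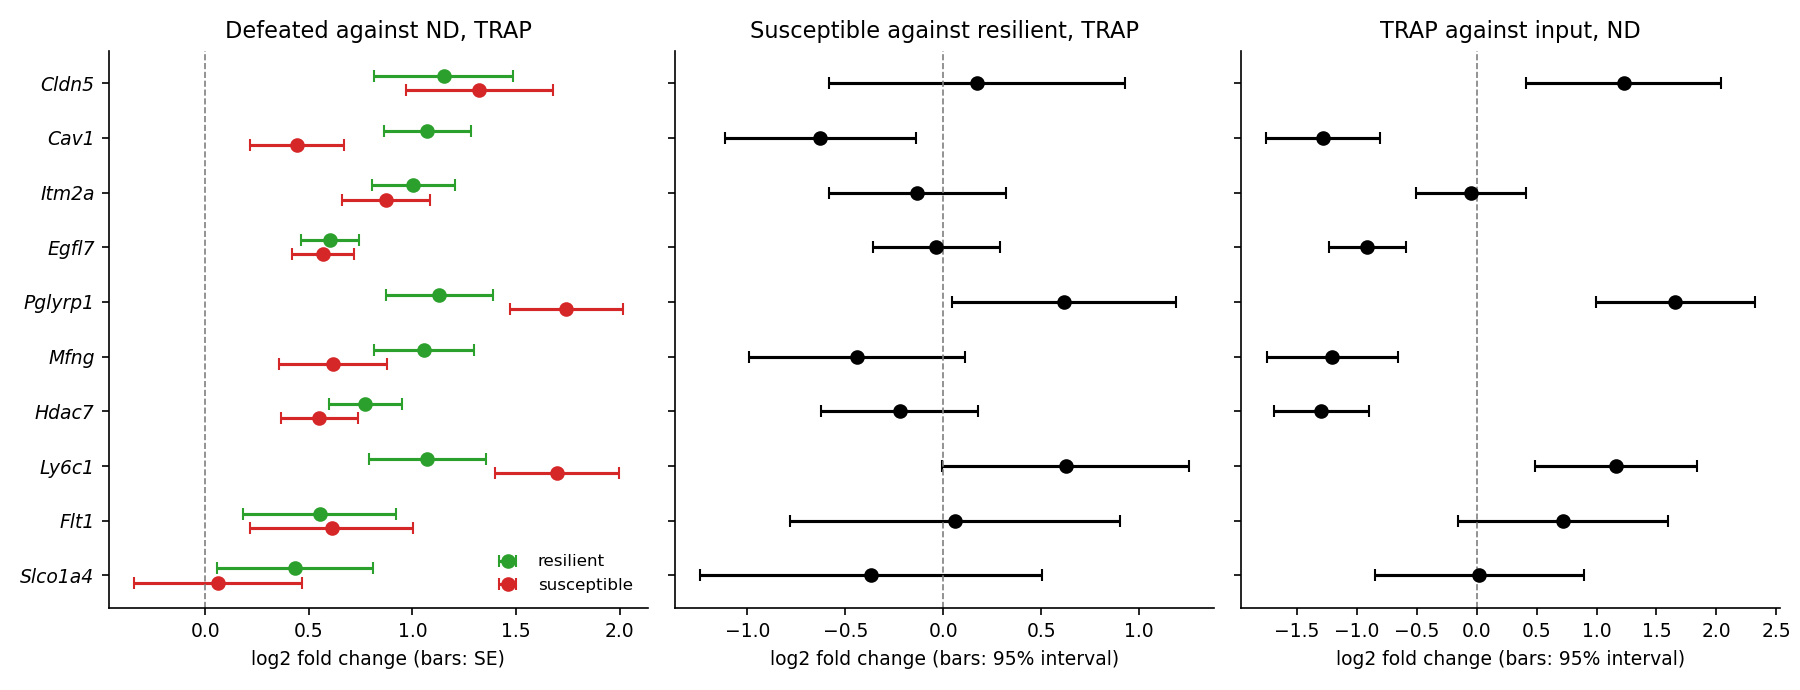
Log2 fold changes of the 10 genes for resilient and susceptible against ND TRAP libraries (left, bars are SE, a description because the genes were chosen on it), susceptible against resilient (middle) and ND TRAP against ND input (right), the last 2 with 95% intervals. Differences from ND are above 0 throughout, susceptible and resilient intervals mostly cross 0, and TRAP against input separates Cldn5, Pglyrp1 and Ly6c1 (above 0) from Cav1, Egfl7, Mfng and Hdac7 (below 0).

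The ND TRAP libraries were set against ND input to see how the genes stood in the PV neuron fraction relative to whole hippocampus, with the caution that the ND TRAP libraries also took part in the choice of genes. Of the 10 genes, 3 were higher in TRAP at an edgeR adjusted p below 0.05, 4 lower and 3 passed in neither direction, where 27.4% of all genes were higher and 27.6% lower. Pglyrp1 was higher, from 0.165 ± 0.0269 CPM (SD, n = 3) in input to 0.521 ± 0.145 (n = 4) in TRAP (1.66, SE 0.31, edgeR adjusted p = 0.000425). Cldn5 was higher by 1.22 (SE 0.38, edgeR adjusted p = 0.0136) and Ly6c1 by 1.16 (SE 0.32, edgeR adjusted p = 0.00626). Without input library 12 the Cldn5 difference was 1.05 at an edgeR adjusted p of 0.0629. Hdac7 was lower (-1.30, SE 0.19, edgeR adjusted p = 3.88e-05), and so was Cav1 (-1.28, SE 0.22, edgeR adjusted p = 0.000225). Mfng (-1.20, SE 0.26) and Egfl7 (-0.91, SE 0.15) were also lower, with edgeR adjusted p of 0.00114 and 0.000139. Itm2a (-0.05, SE 0.21), Slco1a4 (0.02, SE 0.41) and Flt1 (0.72, SE 0.41) did not pass. Endothelial genes lay on both sides of the input level: of 63 other endothelial genes, 6 were higher in ND TRAP, among them Sox17 (1.81) and Tm4sf1 (2.59), and 16 lower, among them Cd34 (-2.74) and Kdr (-1.67).

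Defeated levels relative to input also split. Cav1, Egfl7, Mfng and Hdac7 had means below input in both defeated groups, for example 0.864 times input for Cav1 in resilient and 0.559 times in susceptible libraries. Cldn5, Pglyrp1 and Ly6c1, which were above input in ND mice, were 5.85, 10.6 and 7.27 times the input mean in susceptible libraries. 
The other 63 endothelial genes, listed by role and none of them among the 10, were compared between defeated and ND TRAP libraries. Their lists were chosen with earlier results of these data known, and the genes were measured in the same 11 TRAP libraries. They are not replicates of a condition, and their counts are given as a description. All 63 were tested, 52 had a difference above 0 and 11 below, with a median of 0.38, where 48.9% of all genes were above 0. None passed at an edgeR adjusted p below 0.05, nor did any gene of the table (0.0%), and 14 were higher and 0 lower at an unadjusted p below that value, beside 2.61% of all genes that were higher. DESeq2 called 4 of them at its adjusted p (Eng, Ctla2a, Sox18 and Ly6a) and the likelihood ratio test 2 (Sox18 and Ly6a). Among all 21298 genes these tools called 40 and 30. Leaving out resilient library 8 brought the median to 0.25 and the unadjusted count to 11, and the median of resilient against ND from 0.36 to 0.18.

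By role, junction genes had a median of 0.56 (8 genes, 6 above 0), receptors 0.59 (13 genes, 11 above 0), transcription factors 0.32 (13 genes, 10 above 0), surface and secreted proteins 0.32 (18 genes, 16 above 0) and transporters 0.16 (11 genes, 9 above 0). Of the 63 genes, 3 had every defeated library above every ND library. Ly6a, a surface protein of the same family as Ly6c1, held 2.56 to 3.67 CPM in ND, 3.86 to 10.8 CPM in resilient and 7.95 to 12.8 CPM in susceptible libraries (1.41, SE 0.29, edgeR adjusted p = 0.510). Sox18, a transcription factor of vascular development, held 4.21 to 5.32 CPM in ND and 5.88 to 12.5 CPM in defeated libraries (0.87, SE 0.19, edgeR adjusted p = 0.544). Eng, a co-receptor for transforming growth factor ligands, held 1.25 to 1.56 CPM in ND and 1.75 to 3.87 CPM in defeated libraries (0.87, SE 0.21, edgeR adjusted p = 0.544). Esam, a junction adhesion molecule (0.60, SE 0.27), Adgrf5, an adhesion receptor (1.16, SE 0.50), Slc38a5, an amino acid transporter (1.58, SE 0.73), Slco1c1, a thyroid hormone transporter (0.59, SE 0.30), Ctla2a (1.53, SE 0.39), Foxq1 (1.06, SE 0.28), Sox17 (0.81, SE 0.26) and Cd34 (0.76, SE 0.21) had differences above 0 with groups that overlapped. The markers Pecam1 (1.05, SE 0.61), Cdh5 (0.90, SE 0.95) and Kdr (0.59, SE 0.46) were also above 0 with groups that overlapped. Of the 11 genes below 0, the lowest were Tal1 (-0.80, SE 1.04), Tjp1 (-0.28, SE 0.21) and Jam2 (-0.23, SE 0.27). Between susceptible and resilient libraries the 63 genes had a median of -0.02. At an unadjusted p below 0.05, 5 were higher and 1 lower, where 20.9% of all genes passed in either direction. At an edgeR adjusted p 0 passed, against 1.89% of all genes. DESeq2 called 2 (Ctla2a and Cxcl12) and the likelihood ratio test 2 (Erg and Ctla2a), beside 1664 and 1099 of all 21298 genes. Without resilient library 8 the median was 0.12, and 44 of the 63 genes were above 0 in place of 28. In that run 10 were higher at an unadjusted p below 0.05, beside 1946 of all 21241 genes.

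Pathway neighbours of single genes did not all share the difference. Among 5 caveolar genes beside Cav1, the partner Cav2 differed by 0.01 (SE 0.13), while Cavin1 and Cavin2, which shape the caveolar coat, differed by 0.45 (SE 0.21) and 0.41 (SE 0.20), and none of the 5 passed even unadjusted. Among 9 Notch genes beside Mfng, the median was 0.01 and 1 passed unadjusted, the target gene Heyl (0.63, SE 0.28, edgeR adjusted p = 0.999). The ligand gene Dll4 differed by 1.46 (SE 0.83). The other fringe genes Lfng (-0.21, SE 0.21) and Rfng (-0.01, SE 0.07) lay at or below 0. Itm2b and Itm2c, the paralogs of Itm2a, differed by 0.11 (SE 0.07) and 0.04 (SE 0.09). Slco1a5, next to Slco1a4 in its family, averaged 0.142 ± 0.1496 CPM (SD, n = 4) in ND and 0.741 ± 0.674 (n = 3) in susceptible libraries (1.40, SE 0.63, for defeated against ND, edgeR adjusted p = 0.999). Its difference between susceptible and resilient libraries was 1.96 (SE 0.70, edgeR adjusted p = 0.134), so the pooled defeated value does not stand for both groups.

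**Figure D3:**
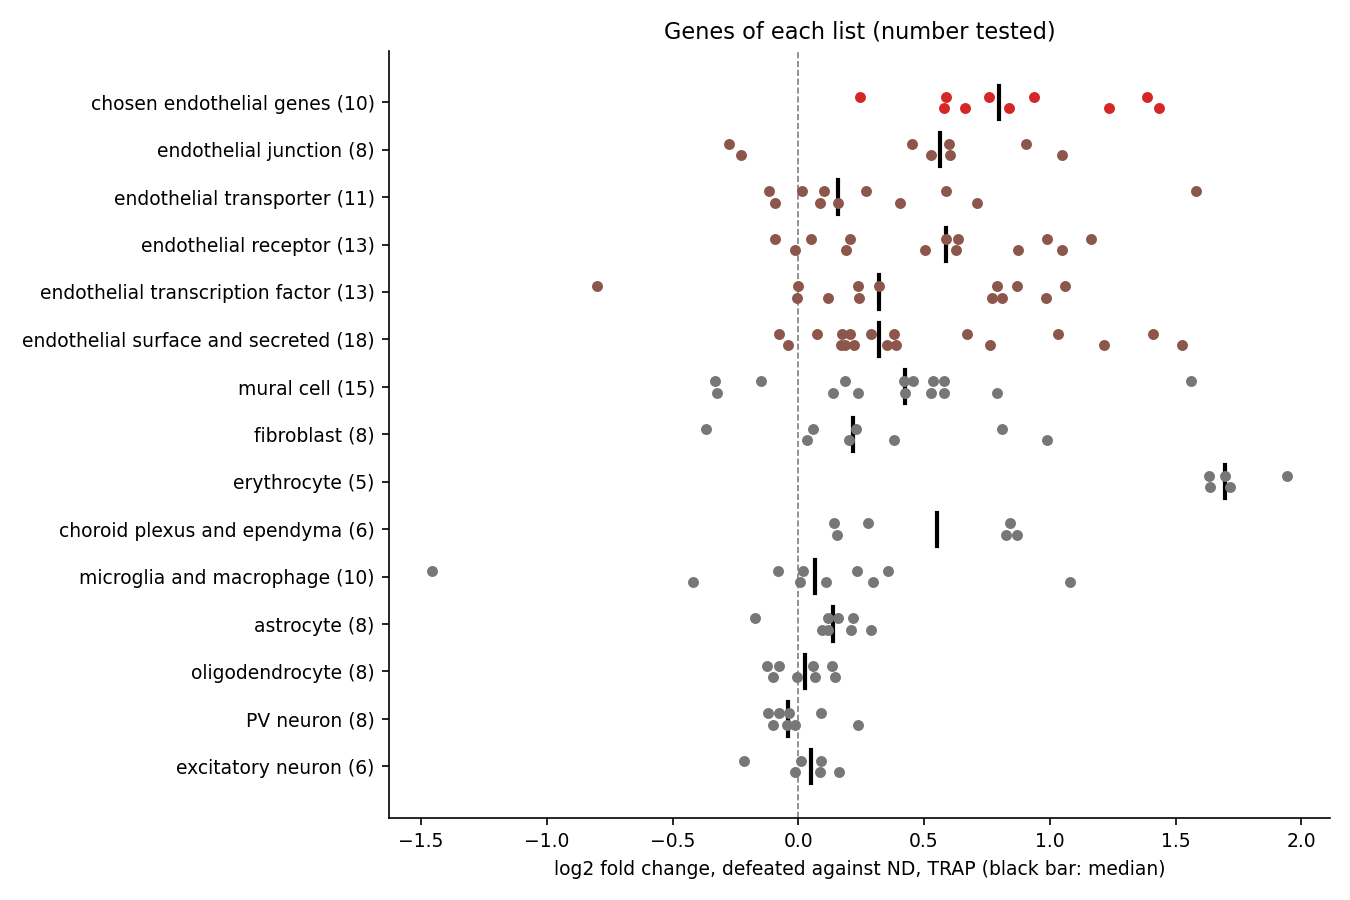
Log2 fold change of defeated against ND TRAP libraries for each gene (points) of the lists, with the list median as a black bar. The 10 chosen genes have a median of 0.80 by choice and the endothelial lists 0.16 to 0.59. Medians are 0.42 for mural cell, 0.22 for fibroblast, 1.70 for erythrocyte and 0.55 for choroid plexus and ependymal genes. Neuronal and glial lists run from -0.04 (PV neuron) to 0.14 (astrocyte).

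Gene lists of other cells were read beside these values. Mural cells, the pericytes and smooth muscle around vessels, had 12 of 15 genes above 0 in defeated against ND libraries (median 0.42, 4 unadjusted and 0 at edgeR adjusted p), and their summed level ran from 47.5 to 64.2 CPM in ND, 54.2 to 89.1 in resilient and 61.4 to 91.9 in susceptible libraries. Rgs5, a pericyte gene, differed by 0.58 (SE 0.14, edgeR adjusted p = 0.544) and Kcnj8, a pericyte potassium channel, by 0.79 (SE 0.29). The 3 mural cell genes below 0 were Pdgfrb (-0.33, SE 0.41), Cspg4 (-0.32, SE 0.25) and Myh11 (-0.15, SE 0.46), so markers of these cells did not share 1 direction. All 5 erythrocyte genes that could be tested were above 0 (median 1.70), and their list summed to 169 ± 53.8 CPM (SD, n = 4) in ND, 281 ± 216 (n = 4) in resilient and 1015 ± 194 (n = 3) in susceptible libraries. Of these, 4 globin genes were higher in susceptible than in resilient libraries, for example Hbb-bs by 2.04 (SE 0.45, edgeR adjusted p = 0.0414). Choroid plexus and ependymal genes were above 0 in 6 of 6 (median 0.55), among them Ttr, the transthyretin gene (0.84, SE 0.23), and Folr1 (0.83, SE 0.33). Fibroblast genes were above 0 in 7 of 8 (median 0.22), among them Mgp (0.99, SE 0.33) and Islr (0.38, SE 0.17). Medians were 0.06 for microglia and macrophages (7 of 10 above 0), 0.14 for astrocytes (7 of 8) and 0.03 for oligodendrocytes (4 of 8). They were -0.04 for PV neuron genes (2 of 8) and 0.05 for excitatory neuron genes (4 of 6). On the excitatory neuron list, Grin2b was higher in susceptible than in resilient libraries (0.63, SE 0.14, edgeR adjusted p = 0.0416). In ND TRAP against input, Grin2b stood at 0.01 (SE 0.14), whereas the list's other 5 genes were lower in TRAP, so Grin2b did not mark that list in these libraries. The part of blood, vessel wall and choroid plexus RNA in the levels of the 10 genes was not tested.

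The erythrocyte mean and the mean of the other endothelial genes were set side by side in every TRAP library, as log2 distances from the group mean. Whether both run together was not tested. Resilient library 5 had the highest erythrocyte mean of its group (1.55) and an endothelial mean of -0.43, and was lowest for Cldn5 (-1.01) and Flt1 (-1.12). Resilient library 8 had an erythrocyte mean of -0.47 and an endothelial mean of 0.52, and was highest for Cldn5 (1.06). In the same order, resilient library 3 was at -0.22 and -0.26, and resilient library 7 at -0.86 and 0.17. In the ND group, library 11 was the highest for both the erythrocyte mean (0.75) and the mean of the other endothelial genes (0.43). Libraries 1 (-0.13 and -0.46) and 6 (-0.18 and -0.12) were below the group mean for both, and library 9 was at -0.44 and 0.16. In the susceptible group, library 10 was above the group mean for both (0.51 and 0.098) and library 4 below it for both (-0.18 and -0.30). Library 2 was below the group mean for the erythrocyte mean (-0.32) and above it for the endothelial mean (0.20). The mean of mural cell genes was -0.30 in resilient library 5 and 0.38 in library 8.

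Whether the 10 genes varied together was asked within groups, after each group's mean log2 CPM was removed from its libraries, since the differences between groups had been used in the choice. Each gene was correlated over the 11 TRAP libraries with the mean of the 63 other endothelial genes, and p-values came from all 3456 rearrangements of libraries within groups (exact, two-sided permutation test). Pearson's r was highest for Itm2a (r = 0.83, exact p = 0.00984, and Spearman's rho = 0.79, exact p = 0.0226) and Ly6c1 (r = 0.79, exact p = 0.0148, rho = 0.82, exact p = 0.0101). With Benjamini-Hochberg adjustment over the 10 genes both permutation p-values for r became 0.0738, those for rho 0.113 and 0.101, and 0 of the 10 genes passed. For Cldn5, Flt1, Slco1a4 and Cav1 r was 0.72, 0.71, 0.66 and 0.61. Egfl7 had r of 0.48, whereas Hdac7 (0.18), Pglyrp1 (0.08) and Mfng (-0.08) lay near 0. Without the libraries farthest from the median of the endothelial mean, ND library 1 and resilient library 5, r ran from 0.01 for Mfng to 0.69 for Itm2a and was above 0 for all 10. The share of all genes with r above 0 is not given here, so this count is not read.

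Pairs of the 10 genes were compared in the same way. Of 45 pairs, 36 had r above 0, with a median r of 0.42 and a median rho of 0.35, 9 passed unadjusted and 0 after adjustment over the pairs. The highest were Cldn5 with Flt1 (r = 0.94, exact permutation p = 0.00347, adjusted 0.0781, and rho = 0.84, p = 0.0263) and Cldn5 with Ly6c1 (r = 0.91, exact permutation p = 0.00145, adjusted 0.0651, and rho = 0.87, p = 0.00521). After the 2 libraries farthest from the median of the first gene of a pair were left out, these were 0.79 and 0.86 and the median over pairs 0.20. Without resilient library 8 the median r over pairs was 0.14. The shares over pairs of all genes are not given here, so the counts of pairs are not read.

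**Figure D4:**
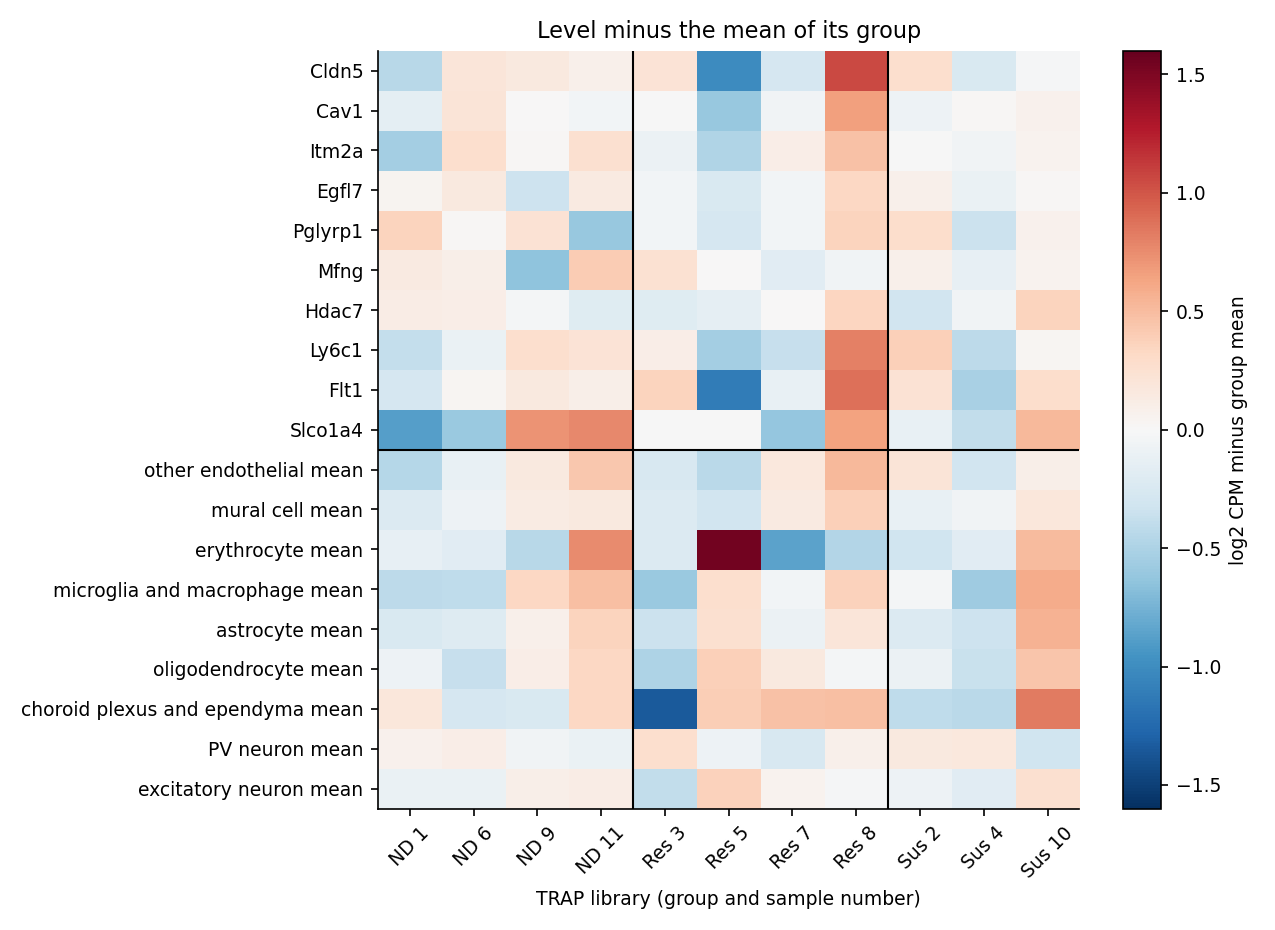
Log2 CPM minus the mean of its group for the 10 genes (upper rows) and for the means of other gene lists (lower rows) in the 11 TRAP libraries, named by group and sample number. Resilient library 8 is above and library 5 below the group mean for most of the 10 genes, by up to 1.06 and -1.12, while the erythrocyte row has the opposite signs (-0.47 and 1.55).

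Among 15982 genes with a mean of at least 1 CPM, those whose within-group pattern over the 11 TRAP libraries was most like the mean of the 10 genes were Sox17 (r = 0.97), Zbtb37 (0.95), Mgp (0.94), Podxl (0.92), Ly6a (0.92), Slc7a5 (0.90), Gm11405 (0.90), Gbp3 (0.90), Klf2 (0.90) and Ppp2r1b (0.89), given as a ranking without a test. Of these, Sox17, Podxl, Ly6a and Slc7a5, are on the endothelial lists, and Mgp is on the fibroblast list. Of the 63 other endothelial genes, 44 were in this ranking, and 8 of these were in the top 100 of the 15982 genes. Genes of other lists in the top 100 were Mgp, the paralog Ly6c2, and the mural cell genes Higd1b and Rgs5.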

How the data were processed

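TRAP/RNA-seq and input RNA-seq of mouse hippocampus were analysed in 14 libraries grouped by their labels. The deposited table holds raw counts per gene. Per the study's methods and the submitters' processing notes, the authors made full-length cDNA (SMART-Seq v4), Nextera XT libraries without strand marking and single reads, trimmed them with fastp and aligned them to mm10 with STAR (2.5.3a in the notes), with HTSeq also named. The annotation release is not given in the sources used here.

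Genes without a symbol held 0.824% of counts and entered library sizes and fits. Counts were fitted in edgeR 4.0.16 (R 4.3.3) with TMM scaling, filterByExpr and the quasi-likelihood test, 1 model of all 14 libraries, Benjamini-Hochberg adjustment over 21298 genes and a threshold of 0.05. DESeq2 1.42.0, the likelihood ratio test, other scalings and filters, fewer groups, sample number as a covariate, and leaving out each library were the alternatives. The fit was checked on simulated data. Log2 CPM used a prior count of 2. Depth is the count total per library, and libraries of 1 group are separate samples, 1 mouse each for TRAP. Labels do not say whether the input libraries came from the same mice as TRAP.

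The 10 genes and the lists (190 genes, each matched to 1 row) were chosen with earlier results of these data known. Named list genes were those at adjusted p below 0.05 in a comparison of TRAP groups, otherwise the 2 with the smallest unadjusted p per list, with Pvalb and the 10 genes most like the chosen ones. Markers, pathway members and paralogs named beyond that rule were chosen after their values were seen. Gene positions are from GENCODE M21 (GRCm38) and promoter windows from RefSeq (GRCm38.p6).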

Additional observations from a re-analysis of the deposited data

How the results depend on the processing

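No paired analysis was possible because the groups share no sample numbers. Over all genes, counts of calls at adjusted p were sensitive to the tool and to the libraries, and the cause was not tested. Defeated against ND gave 0 calls in the main analysis, 40 with DESeq2 and 30 with the likelihood ratio test, and 0 in each run with 1 library left out. Resilient against ND gave 0, against 4 with DESeq2 and 4 with the likelihood ratio test. Susceptible against ND gave 8, against 379 with DESeq2, 189 with the likelihood ratio test, 13 with RLE scaling, 16 with at least 10 counts in every library, 0 with TRAP libraries only, 5 with only the groups compared, 0 with sample number as a covariate, and 0 to 19 with 1 library left out. Susceptible against resilient gave 403, against 1664 with DESeq2, 1099 with the likelihood ratio test, 126 without a filter, 1 with TRAP libraries only, 0 with only the groups compared, 1109 with sample number as a covariate, and 6 to 1058 with 1 library left out. Genes correlated with the endothelial mean at adjusted p numbered 0, and 0 to 2 with 1 library left out.

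Single genes changed sign where the difference was near 0. With 1 library left out, susceptible against resilient ran from -0.079 to 0.64 for Cldn5, -0.27 to 0.042 for Itm2a, -0.11 to 0.090 for Egfl7 and -0.21 to 0.41 for Flt1, and ND TRAP against input from -0.13 to 0.10 for Itm2a and -0.24 to 0.25 for Slco1a4, which was -0.0078 with at least 10 counts in every library. The mural cell median in susceptible against ND was 0.16 without susceptible library 10. For the 10 genes, the calls in ND TRAP against input held in each alternative run except Cldn5 without input library 12, and 0 passed in susceptible against resilient in each. Counts behind a value of the 10 genes ran from 12 (Pglyrp1, input) to 1381 (Ly6c1, susceptible), and no detection rate at these depths is given here.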
